A study of Rattus norvegicus with 8 samples.

Results

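The pyruvate dehydrogenase complex and the enzymes that switch it on and off were followed in alveolar type II (ATII) cells of the rat, the lung epithelial cells that make surfactant, after expression of a constitutively active mutant of HIF1a. Of 18166 genes measured on the arrays, 10 form this group: the 4 pyruvate dehydrogenase kinases (Pdk1, Pdk2, Pdk3 and Pdk4), the catalytic subunits of its 2 phosphatases (Pdp1 and Pdp2) and 4 subunits of the complex itself (Pdha1, Pdhb, Dlat and Pdhx). They were chosen by name, and each was represented by 1 probe set annotated with that symbol alone.

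The complex stands at the gate between glycolysis and the mitochondrion, where it converts pyruvate to acetyl-CoA for the tricarboxylic acid cycle or for fatty acid synthesis. The kinases phosphorylate serines of the alpha subunit of its decarboxylase and stop the reaction, and the phosphatases remove these phosphates and restart it. Pdk1 is a long-known target of HIF1, and its induction in hypoxic cells diverts pyruvate to lactate. Pdk4 is best known for its induction by fasting, by fatty acids acting through the nuclear receptors of the PPAR family, and by glucocorticoids. In ATII cells acetyl-CoA also feeds the synthesis of surfactant lipids.

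Cells were isolated from male Sprague Dawley rats and divided into a well given an adenovirus that expressed green fluorescent protein (AdGFP) and a well given an adenovirus that expressed the HIF1a mutant (AdHIF1a). Both groups therefore carried an adenovirus. In both it was left on the cells for 3 h (multiplicity of infection 20, 2% fetal bovine serum), and both were then kept for 24 h on 80% rat tail collagen and 20% Matrigel with 5% rat serum before RNA was taken. No group without virus was analysed here. The sources used here do not give the age of the rats, the promoter of the transgenes or the share of cells that took up virus. The 8 arrays form 4 pairs, 1 well of each virus from each of 4 rats on separate extraction days, and rat and day cannot be told apart.

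All values are log2 signals of probe sets, and a difference is AdHIF1a minus AdGFP within rats ± its standard error (SE) from limma, 4 rats throughout. A gene was called at an adjusted p under 0.05 over all 18166 genes. The RNA is from whole wells, in which fewer cells of a type and less RNA per cell cannot be told apart. Of the defining ATII markers, the surfactant protein gene Sftpc read at least 12.12 in every well. Markers of alveolar type I cells also gave high signals in AdGFP wells, 12.30 to 12.70 for Ager and 12.08 to 12.43 for Pdpn, so Sftpc alone does not settle the makeup of the wells. The log2 of the summed unlogged signals of 8 measured ATII markers was 13.80 to 14.27 in AdGFP wells and 13.85 to 14.28 in AdHIF1a wells. In such sums the brightest markers weigh most, so they say little about dimmer ones. The list split: Sftpb (0.69) and Sftpa1 (0.88) were higher with AdHIF1a, Napsa (-1.52) and Lamp3 (-0.78) lower, and 4 were not called. Of these 4, Slc34a2 (-0.82) and Abca3 (-0.39) were negative in 4 of 4 rats. Sftpc (0.29) was positive in 4 of 4 rats and Etv5 (0.18) in 3 of 4. The flat alveolar type I cells, into which ATII cells turn in culture, were read from 6 markers, of which 4 were lower in AdHIF1a wells and 0 higher. Their signals, summed in the same way, gave 13.45 to 13.87 in AdGFP wells and 12.29 to 13.0 in AdHIF1a wells. The summed signals of macrophage markers were 10.22 to 10.92 and 9.49 to 10.95, with 0 of 7 called. Of these, Mrc1 (-0.82), Csf1r (-0.46) and Ptprc (-0.26) were negative in 4 of 4 rats. Cd14 (-0.28), Itgam (-0.07), Cd68 (0.02) and Marco (0.10) differed in sign between rats. The summed signals of fibroblast markers were 7.42 to 7.54 and 7.28 to 7.51 (0 of 5 called), and those of endothelial markers 6.43 to 6.62 and 6.46 to 6.73 (0 of 4). Ciliated cell markers were lower for 2 of 3 genes, at 7.09 to 7.42 and 6.58 to 6.88. Over all genes, 5.68% were called higher and 7.77% lower. The part of these marker shifts in the results was not tested. The rat Hif1a probe set read 11.12 ± 0.13 and 10.64 ± 0.12 (SD); since the transgene's species is not given, it does not check the labels.

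The promoters of the 4 kinase genes are shown first because the kinases changed in opposite directions. Each window holds 250 bases before and 50 after the gene's start in RefSeq (GRCr8), and capitals mark ACGTG and GCGTG on either strand, the core letters of the sites that HIF binds (CACGT and CACGC are the same letters read from the other strand).
Pdk1 (chr3:77113264-77113563, plus strand): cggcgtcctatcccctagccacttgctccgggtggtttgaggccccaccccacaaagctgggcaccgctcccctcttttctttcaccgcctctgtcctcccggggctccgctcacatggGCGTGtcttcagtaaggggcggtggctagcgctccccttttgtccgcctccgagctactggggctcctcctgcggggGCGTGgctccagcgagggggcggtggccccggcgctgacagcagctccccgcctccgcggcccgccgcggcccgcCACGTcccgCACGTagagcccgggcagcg
Pdk2 (chr10:80483863-80484162, minus strand): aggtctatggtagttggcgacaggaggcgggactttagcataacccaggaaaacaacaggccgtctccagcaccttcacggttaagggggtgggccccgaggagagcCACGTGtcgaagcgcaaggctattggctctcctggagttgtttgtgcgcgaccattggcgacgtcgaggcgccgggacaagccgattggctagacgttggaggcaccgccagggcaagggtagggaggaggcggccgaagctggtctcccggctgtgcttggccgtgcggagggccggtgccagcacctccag
Pdk3 (chrX:62547322-62547621, minus strand): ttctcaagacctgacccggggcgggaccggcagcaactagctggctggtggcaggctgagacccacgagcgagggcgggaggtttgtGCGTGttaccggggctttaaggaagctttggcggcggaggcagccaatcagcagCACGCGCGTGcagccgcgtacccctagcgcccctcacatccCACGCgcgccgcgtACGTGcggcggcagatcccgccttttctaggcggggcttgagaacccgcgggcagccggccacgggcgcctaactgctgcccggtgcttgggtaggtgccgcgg
Pdk4 (chr4:34568280-34568579, minus strand): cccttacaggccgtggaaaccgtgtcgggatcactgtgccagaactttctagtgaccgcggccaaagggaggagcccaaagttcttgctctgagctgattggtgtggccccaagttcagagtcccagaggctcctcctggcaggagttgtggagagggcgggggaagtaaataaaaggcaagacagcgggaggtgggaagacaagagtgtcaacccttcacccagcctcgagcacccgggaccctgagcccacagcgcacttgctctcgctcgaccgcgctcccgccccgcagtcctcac
The Pdk1 window held 4 separate matches and the Pdk3 window 5, whereas the Pdk2 window held a single site, a palindrome CACGTG that matches on both strands, and the Pdk4 window held 0. Of all 33469 promoter windows in the table, 41.6% held at least 1 match, 16% at least 2 sites, 5.96% at least 3 and 2.09% at least 4. The windows of the subunits Pdha1, Pdhb and Dlat held 3 sites each and that of Pdhx 2, and these 4 genes were not called. The kinase windows were also rich in G and C, 61.3% to 72.0% against a median of 51.7% over all windows. The windows of the 4 subunits held 54.3% to 68.7%. The windows of Pdp1 and Pdp2 were not analysed here. These matches describe letters, not bound sites.

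Each of the 4 kinase genes changed, but in opposite directions: Pdk1 and Pdk3 were higher in AdHIF1a wells, and Pdk2 and Pdk4 lower. One of the 2 phosphatase genes, Pdp1, was lower, and 0 of the 4 subunit genes was called. Over all 10 genes 2 were higher, 3 lower and 5 not called, against 13.4% of all genes called in either direction, 5.68% higher and 7.77% lower. The wells of the 2 groups did not overlap for 6 of the 10 genes, against 22.5% of all genes. The median difference was -0.21 over the 10 genes and -0.005 over all genes.

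**Figure D1:**
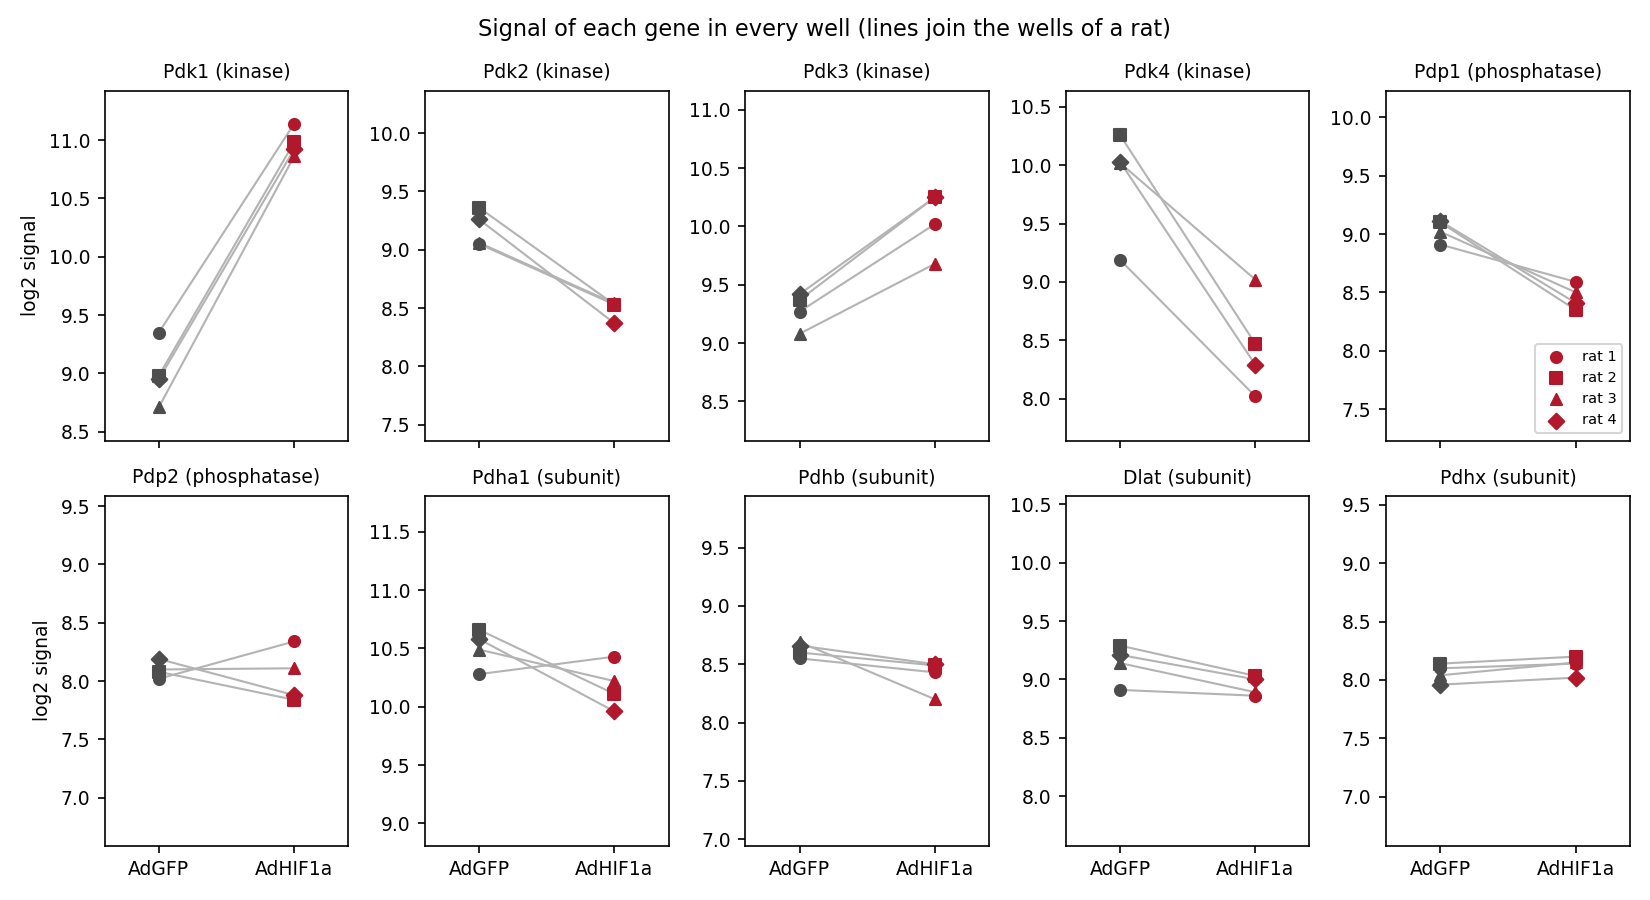
Log2 signal (vertical axes, each spanning 3 log2 units) of the 10 genes in the AdGFP and AdHIF1a wells; each line joins the wells of 1 rat and symbols mark the rats. Lines rise for Pdk1 and Pdk3, fall for Pdk2, Pdk4 and Pdp1, and differ in slope between rats for Pdp2 and Pdha1.

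Pdk1 gave the largest change of the 10. With AdGFP its signals in rats 1 to 4 were 9.35, 8.98, 8.71 and 8.95, and with AdHIF1a they were 11.14, 10.98, 10.86 and 10.92. Every AdHIF1a well was above every AdGFP well by more than 1 log2 unit, and the AdHIF1a wells lay closer together (SD 0.12) than the AdGFP wells (SD 0.26). The difference of 1.98 ± 0.09 corresponds to a 3.94-fold rise (95% confidence interval 3.34 to 4.64, limma adjusted p = 0.000957), and 99.6% of all genes had a lower difference. The call held under all 16 alternative settings, with differences of 1.90 to 2.04 and limma adjusted p of at most 0.0124. Of these, the stricter p limit and the 1.5-fold minimum reuse the main fit. The mean of probe sets cannot change the difference of a gene with 1 probe set.

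Pdk3, an isoform that has been reported as a HIF1 target in human cells, rose as well, by less than Pdk1. Its signals went from 9.27, 9.37, 9.08 and 9.42 to 10.02, 10.25, 9.68 and 10.25 in rats 1 to 4. The groups did not overlap, and rat 3 had the lowest well of each group. The difference was 0.77 ± 0.09, or 1.70-fold (1.46 to 1.98, limma adjusted p = 0.00758), and 97.3% of all genes had a lower difference. Without rat 2 the difference was 0.73 and the adjusted p 0.0547, and without rat 4 they were 0.74 and 0.0519, so that either omission ended the call.

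Pdk4, the isoform tied to fasting and fatty acid use, fell the most. Its signals were 9.19, 10.26, 10.02 and 10.03 in the AdGFP wells and 8.02, 8.47, 9.02 and 8.29 in the AdHIF1a wells. The groups did not overlap, but the highest AdHIF1a well (rat 3) and the lowest AdGFP well (rat 1) lay close together, and the spread within each group was the widest of the 10 genes (SD 0.47 and 0.42). Pdk4 fell by 1.42 ± 0.17, or 2.69-fold (2.02 to 3.57, limma adjusted p = 0.0074), and only 0.523% of all genes had a lower difference. The call held in all 16 alternatives, at adjusted p of at most 0.0457.

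Pdk2, the most widely expressed of the kinases, was also lower. Its signals were 9.05, 9.36, 9.06 and 9.26 in the AdGFP wells and 8.53, 8.53, 8.54 and 8.37 in the AdHIF1a wells, with no overlap. Pdk2 fell by 0.69 ± 0.11, or 1.61-fold (1.34 to 1.94, limma adjusted p = 0.0153), and leaving out rat 2 (adjusted p = 0.0854) or rat 4 (0.0798) ended the call.

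The kinases kept this order in every rat. The difference of Pdk1 exceeded that of Pdk3 by 1.04, 1.12, 1.55 and 1.14 in rats 1 to 4, and that of Pdk2 exceeded that of Pdk4 by 0.65, 0.96, 0.48 and 0.85. Between the extremes, Pdk1 and Pdk4 moved apart by a mean of 3.40 ± 0.41 (SD, n = 4) log2 units. An exact two-sided sign-flip test gave p = 0.125 for each of 4 pairs compared (0.125 after adjustment over them), the smallest value that 4 rats allow, so no pair could pass the threshold.

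**Figure D2:**
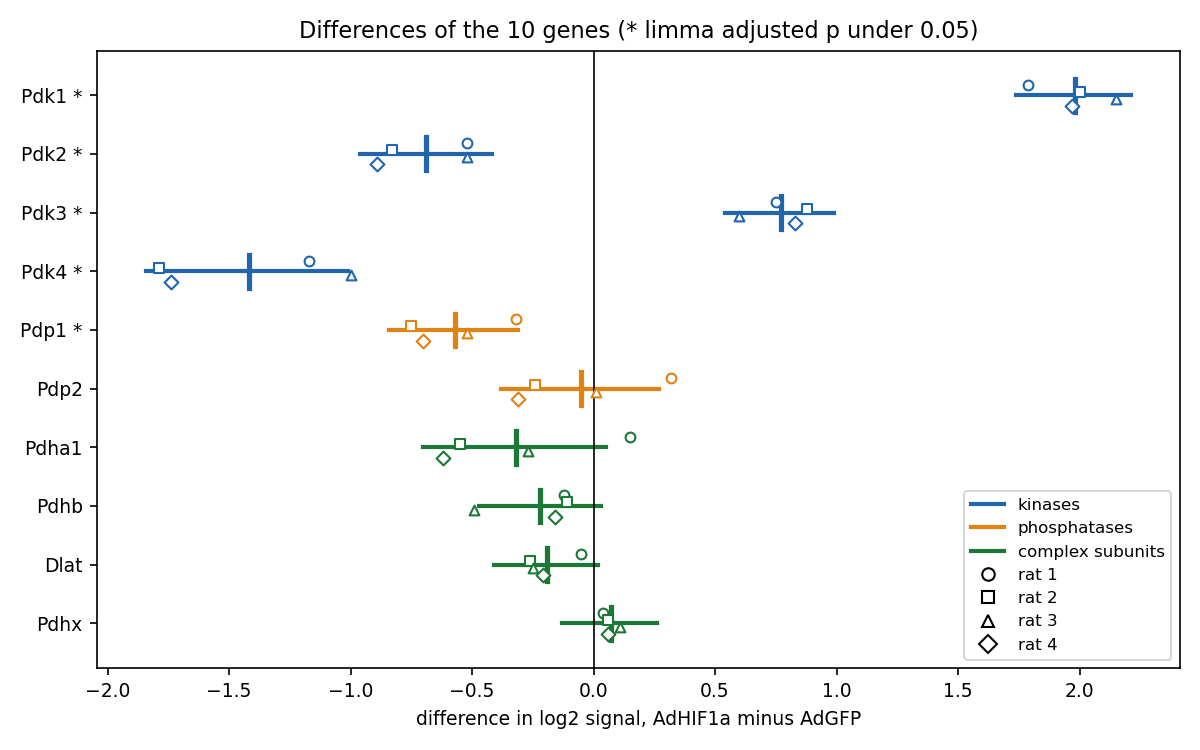
Difference in log2 signal, AdHIF1a minus AdGFP (horizontal axis), of the 10 genes: thick ticks are the limma estimates, bars their 95% confidence intervals and open symbols the 4 rats, with stars on called genes. Pdk1 (1.98) and Pdk3 (0.77) lie right of 0, Pdk4 (-1.42), Pdk2 (-0.69) and Pdp1 (-0.57) left of it, and the intervals of the other 5 genes cross 0.

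Among the phosphatases, Pdp1, the calcium-stimulated form, was lower. Its signals were 8.91, 9.10, 9.02 and 9.11 in the AdGFP wells and 8.59, 8.35, 8.5 and 8.41 in the AdHIF1a wells. The groups did not overlap, and rat 1 had both the lowest AdGFP well and the highest AdHIF1a well. Pdp1 fell by 0.57 ± 0.11, or 1.49-fold (1.24 to 1.78, limma adjusted p = 0.0245). The call depended on the rats included: the limma adjusted p was 0.122 without rat 2, 0.0855 without rat 3 and 0.12 without rat 4. In these fits the differences were -0.51, -0.59 and -0.53. Calls over all genes were also fewest without rat 2 or rat 4. The fall of Pdp1 is also just under 1.5-fold, so that a minimum of that size removes the call.

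Pdp2, the form that does not respond to calcium, went up in rat 1 (8.02 to 8.34), down in rat 2 (8.08 to 7.84) and rat 4 (8.19 to 7.88), and differed by 0.01 in rat 3. Its difference was -0.05 ± 0.13 (interval -0.38 to 0.27, limma adjusted p = 0.840). The interval does not reach the difference of Pdk3 or that of Pdp1, but a test that misses the threshold does not show that Pdp2 was unaltered. Within rats Pdp1 fell below Pdp2 by 0.64, 0.51, 0.53 and 0.39.

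The subunit genes gave smaller differences. Pdha1 encodes the alpha subunit of the decarboxylase, which carries the serines that the kinases modify and lies on the X chromosome. Its signals were 10.28, 10.66, 10.49 and 10.58 in the AdGFP wells and 10.43, 10.11, 10.22 and 9.96 in the AdHIF1a wells. Rat 1 went up by 0.15 while rats 2, 3 and 4 went down by 0.55, 0.27 and 0.62, and the groups overlapped. The difference of -0.32 ± 0.15 was not called (interval -0.70 to 0.05, limma adjusted p = 0.239), nor was it without rat 1 (-0.48, adjusted p = 0.0670).

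Pdhb, the beta subunit of the decarboxylase, had AdGFP signals of 8.55 to 8.69 and AdHIF1a signals of 8.20 to 8.5. The groups did not overlap, but they nearly touched, and most of the difference of -0.22 ± 0.10 came from rat 3 (limma adjusted p = 0.239). Dlat, the acetyltransferase that forms the core of the complex and carries its lipoyl groups, read 8.91 to 9.29 and 8.86 to 9.03, a difference of -0.19 ± 0.09 that was negative in 4 of 4 rats (limma adjusted p = 0.220). Pdhx, which anchors the dihydrolipoamide dehydrogenase of the complex to the core, read 7.96 to 8.14 and 8.02 to 8.20 and differed by 0.07 ± 0.08 (limma adjusted p = 0.651). The intervals of these 3 genes, -0.47 to 0.03 for Pdhb, -0.41 to 0.02 for Dlat and -0.13 to 0.26 for Pdhx, lie within 0.5 log2 units of 0. None of the subunit genes was called under any of the 16 alternative settings.

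**Figure D3:**
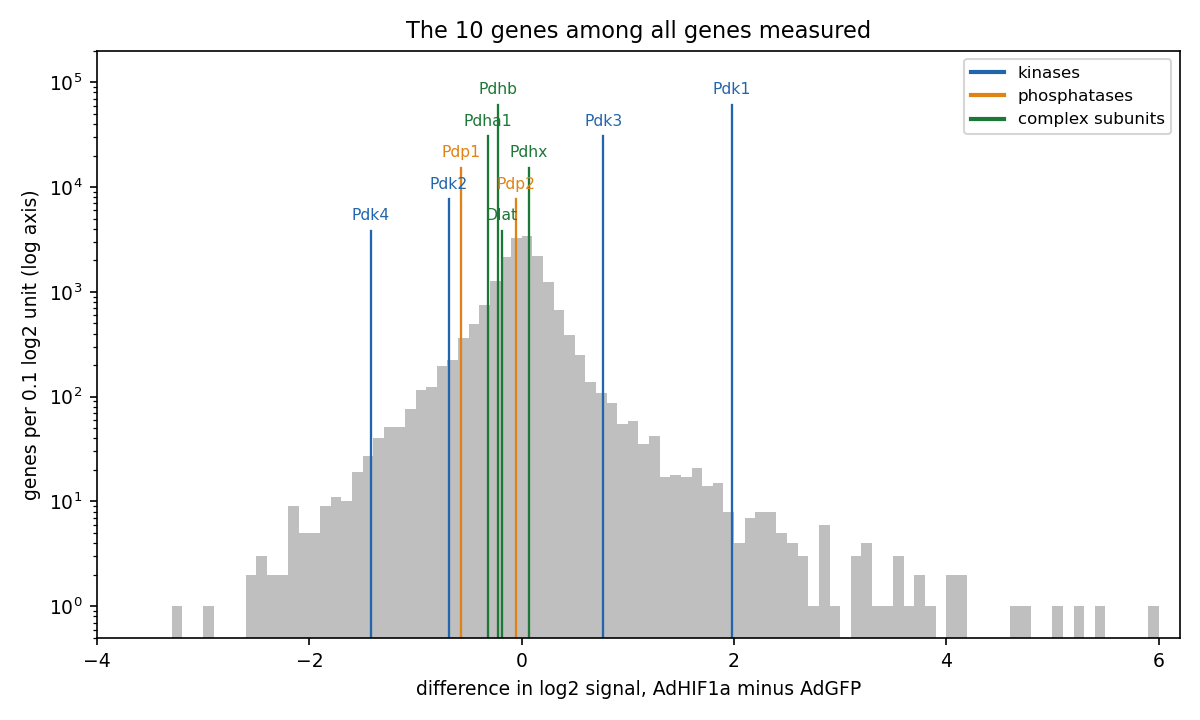
Number of genes (vertical axis, log scale) by difference in log2 signal, AdHIF1a minus AdGFP (horizontal axis, bins of 0.1 log2 units), with the 10 genes marked by role. The subunits and Pdp2 lie in the central mass of genes, while Pdk1 lies above 99.6% of all genes and only 0.523% lie below Pdk4.

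The changes were not of one size across rats. Pdk4 fell by 1.17, 1.79, 1.0 and 1.74 in rats 1 to 4, Pdk2 by 0.52, 0.83, 0.52 and 0.89 and Pdp1 by 0.32, 0.75, 0.52 and 0.70, each most in rats 2 and 4. The median difference of the alveolar type I markers was -0.71, -1.24, -0.70 and -1.35 in the same rats, so it too was largest in rats 2 and 4, and the part of this shift in the values of Pdk4, Pdk2, Pdp1 and Pdk3 was not tested. The order of rats was not particular to genes that fell: Pdk3 rose by 0.75, 0.88, 0.60 and 0.83, also most in rats 2 and 4. Pdk1, which rose by 1.79, 2.00, 2.15 and 1.97, was changed most in rat 3.

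The genes closest to Pdk1 in their 4 within-rat differences, by root mean square distance, were Rdh16 (a retinol dehydrogenase, distance 0.090 log2 units), Egln1 (a prolyl hydroxylase that marks HIF for degradation, 0.152), Pfkfb3 (which makes the activator of phosphofructokinase, 0.173), Pfkp (a phosphofructokinase subunit, 0.196) and Gpt (an alanine aminotransferase, 0.209). Their differences ranged from 1.81 ± 0.09 for Pfkfb3 to 2.11 ± 0.10 for Pfkp, and the limma adjusted p was 0.00147 or less. These genes were picked for differences near those of Pdk1, so their large differences and small p-values follow from that choice. Likeness over 4 rats is a description and carries no test.

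Genes around the complex were read in 5 lists with 57 entries, of which 52 were measured. Of these 8 were higher, 10 lower and 34 not called, against 5.68% of all genes called higher and 7.77% lower. Among its partners and cofactor genes, which include the shared dihydrolipoamide dehydrogenase, lipoate synthesis and thiamine transport, 1 of 8 was higher and 0 lower (median 0.10). That gene was Slc19a2, a plasma membrane transporter of thiamine, from which the coenzyme of the decarboxylase is made. It went from 8.14, 7.84, 7.85 and 7.71 to 8.84, 8.98, 8.53 and 8.97, without overlap, a difference of 0.95 ± 0.13 or 1.93-fold (limma adjusted p = 0.0123; 0.0702 without rat 2 and 0.0626 without rat 4). Outside the naming rule, Dld, that dehydrogenase, differed by -0.20 ± 0.09 (limma adjusted p = 0.208) and Pdpr, the regulatory subunit of the phosphatase, by -0.35 ± 0.15 (limma adjusted p = 0.201). Also not called, Lipt1 (0.16), Lipt2 (0.18) and Nfu1 (0.18) of the same list went the other way, each positive in 4 of 4 rats.

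Genes that handle pyruvate and lactate were higher for 5 of 10 and lower for 0, with a median difference of 0.54. Slc16a3, the lactate exporter of glycolytic cells, rose from 11.19, 10.52, 10.13 and 10.57 to 12.36, 12.18, 12.17 and 12.17, by 1.62 ± 0.15 or 3.07-fold (limma adjusted p = 0.00437). The AdHIF1a wells lay closer together (SD 0.09) than the AdGFP wells (SD 0.44). Gpt rose by 1.86 ± 0.11 (3.64-fold) and Gpt2, its mitochondrial counterpart, by 0.75 ± 0.17; both exchange pyruvate and alanine. Slc16a1, another monocarboxylate transporter, rose by 1.01 ± 0.11 and Ldha, the lactate dehydrogenase subunit that favours lactate formation, by 0.70 ± 0.09 (1.62-fold). The call of Ldha was lost without rat 2 (limma adjusted p = 0.0596) or rat 4 (0.0547), and that of Gpt2 without any 1 of the rats (0.0587 to 0.156) and after median centring (0.0838). Outside the naming rule, Ldhb, the other lactate dehydrogenase subunit, differed by -0.32 ± 0.09 (limma adjusted p = 0.0661) and Mpc1, a subunit of the mitochondrial pyruvate carrier, by -0.30 ± 0.10 (limma adjusted p = 0.118), each negative in 4 of 4 rats. Me1 of the same list, also not called, differed by 0.38 ± 0.12 (limma adjusted p = 0.104), positive in 4 of 4 rats and without overlap.

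The related dehydrogenases of 2-oxoglutarate, 2-oxoadipate and branched-chain oxoacids, which share Dld and the general design of the complex, were mostly not called (1 of 9 higher, 1 lower, median -0.16). Bckdhb, the beta subunit of the branched-chain decarboxylase, rose by 0.73 ± 0.16, with differences of 1.27, 0.58, 0.62 and 0.44 in rats 1 to 4. Dhtkd1, a 2-oxoadipate dehydrogenase, fell by 0.40 ± 0.08. Its wells overlapped between the groups. Its mean signals, 5.34 with AdGFP and 4.95 with AdHIF1a, lay near the median of all probe set means, 5.09. The calls of Bckdhb and Dhtkd1 were near the threshold (limma adjusted p = 0.0370 and 0.0366). That of Bckdhb was lost without rat 2, 3 or 4 (0.0986 to 0.122) and after median centring (0.0857). That of Dhtkd1 was lost without rat 2, 3 or 4 (0.125 to 0.169), when the block for rats was dropped (0.0894) or made random (0.0667), with quantile normalization (0.0504), after median centring (0.0638) and with a trended and robust prior (0.0631).

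Genes that make or use acetyl-CoA by other routes were lower for 3 of 8 and higher for 1 (median -0.20). Acss1, which makes acetyl-CoA from acetate in mitochondria, went from 9.07, 9.11, 9.20 and 9.15 to 7.81, 8.04, 7.75 and 7.42. The groups were more than 1 log2 unit apart at their nearest wells, and Acss1 fell by 1.38 ± 0.13, or 2.60-fold (limma adjusted p = 0.00437). Acat1, the mitochondrial acetoacetyl-CoA thiolase, fell by 0.56 ± 0.12 and Crat, which moves acetyl groups to carnitine, by 0.43 ± 0.08. Acly, which makes acetyl-CoA from citrate in the cytosol, rose by 0.75 ± 0.11. The call of Acly was lost without rat 2 (limma adjusted p = 0.0670) or rat 4 (0.0778), that of Acat1 without rat 2, 3 or 4 (0.124 to 0.171) and after median centring (0.0535), and that of Crat without rat 2, 3 or 4 (0.102 to 0.143).

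Regulators known to act on Pdk4, with other targets of theirs, were lower for 6 of 17 and higher for 0, beside the fall of Pdk4 itself (median -0.05). The other 11 were not called, among them Tsc22d3 (-0.51), Ppard (0.27), Foxo3 (0.27), Esrra (0.06), Foxo1 (0.04), Nr3c1 (-0.03) and Per1 (-0.04). Ppara, a fatty acid receptor that induces Pdk4 in fasted liver and muscle, fell by 0.58 ± 0.09. Pparg, a receptor of the same family, fell by 0.54 ± 0.12 and their coactivator gene Ppargc1a by 0.56 ± 0.11. The mean signals of Ppara (5.67 with AdGFP, 5.09 with AdHIF1a) and Ppargc1a (5.24 and 4.68) lay near the median of all probe set means, 5.09. The wells of the 2 groups overlapped for Pparg and Ppargc1a. Cpt1a, the carnitine transferase that admits fatty acids to mitochondria, went from 9.88, 10.24, 10.39 and 10.11 to 9.06, 9.21, 9.64 and 8.96 without overlap and fell by 0.94 ± 0.10, or 1.92-fold (limma adjusted p = 0.00653). Ucp2, a carrier of the inner membrane, fell by 0.56 ± 0.10 and Fkbp5, a glucocorticoid target, by 0.50 ± 0.11. Outside the naming rule, the PPAR target Angptl4, which HIF also induces, went the other way at 0.92 ± 0.24 with the widest interval of the list (0.32 to 1.53, limma adjusted p = 0.0648), and rat 1 gave the largest difference (1.84).

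Of these 6 calls, that of Cpt1a held in all 16 alternatives. Limma adjusted p reached 0.0532 to 0.0876 for Ppara and 0.112 to 0.145 for Ppargc1a without rat 2, 3 or 4, 0.0857 to 0.163 for Pparg without rat 1, 2 or 4, 0.106 and 0.1 for Ucp2 without rat 2 or rat 4, and 0.130 to 0.161 for Fkbp5 without rat 2, 3 or 4. Fkbp5 was also not called after median centring (0.0529), Pparg when the block for rats was dropped (0.0865) or made random (0.0654), and Ppargc1a without the block (0.0623). The filter at the median removed the dim probe set of Ppargc1a, which therefore has 15 alternatives.

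**Figure D4:**
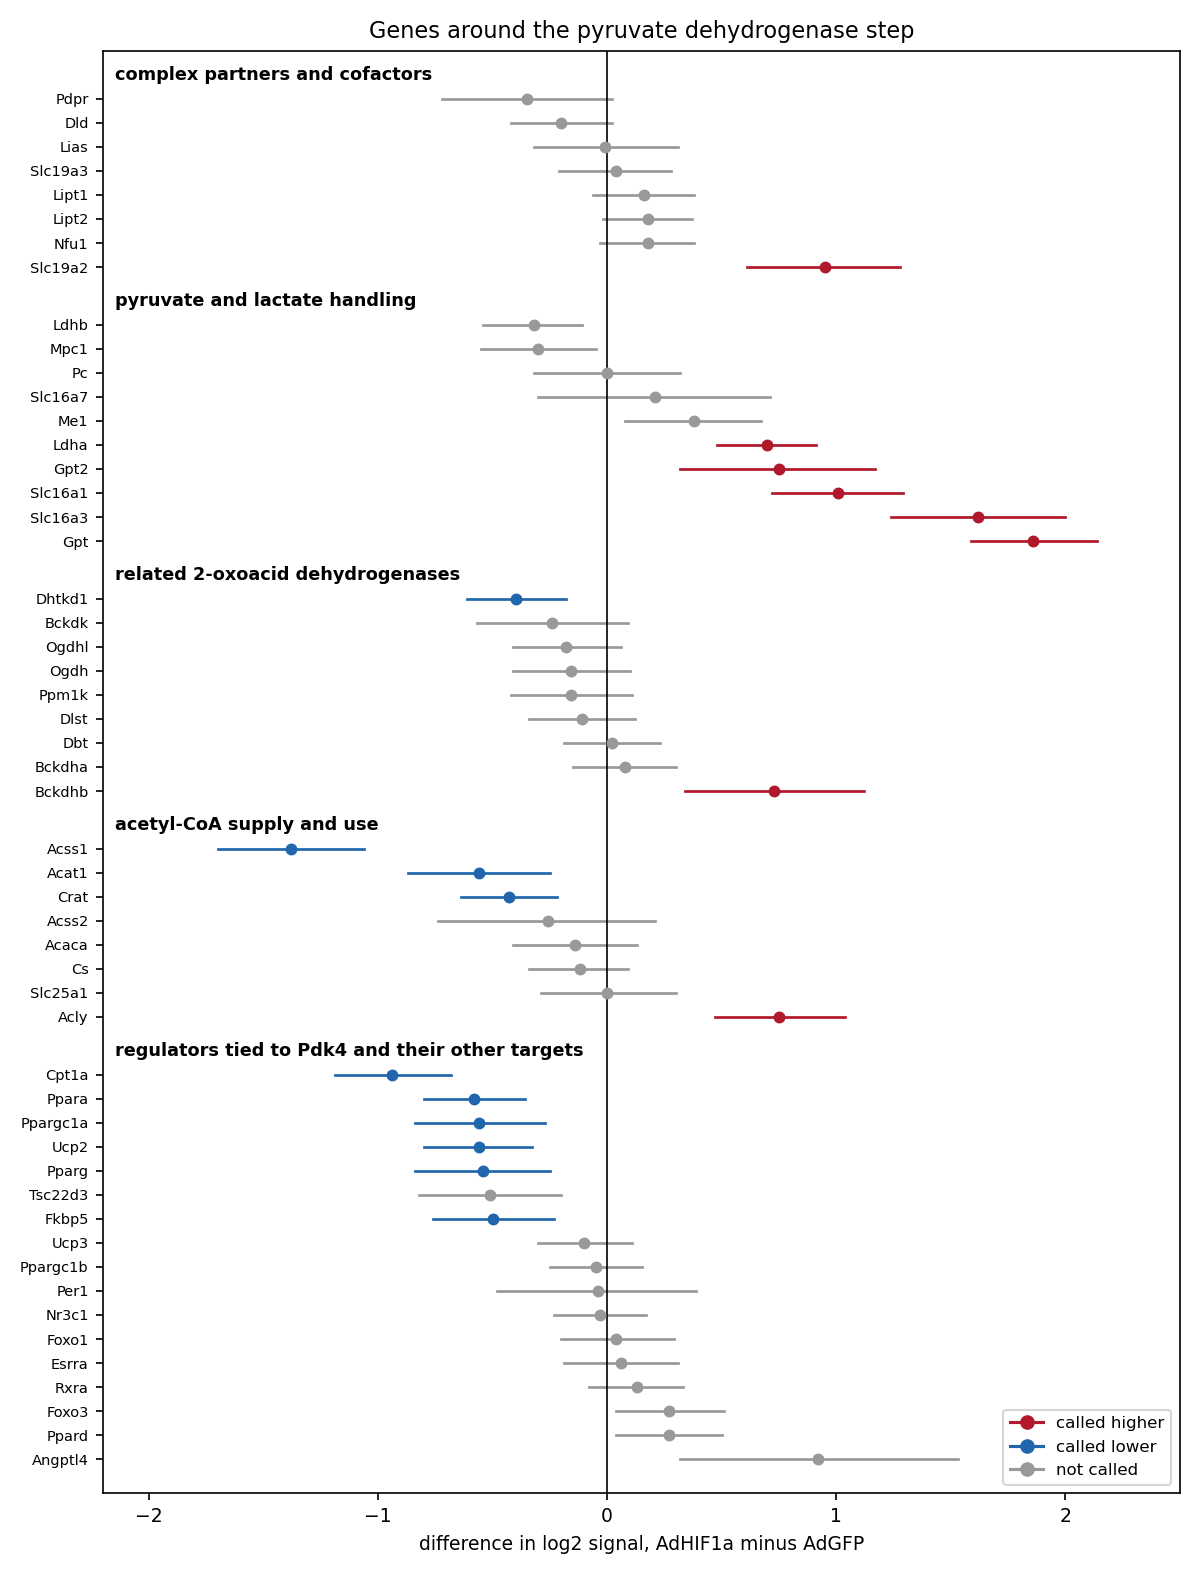
Difference in log2 signal, AdHIF1a minus AdGFP (horizontal axis), of 52 genes in 5 lists around the complex; points are limma estimates and bars 95% confidence intervals, coloured by call. Called genes are higher in the pyruvate and lactate list (5 of 10) and lower in the list of Pdk4 regulators and their targets (6 of 17). Over all genes, 5.68% were called higher and 7.77% lower.

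**Figure D5:**
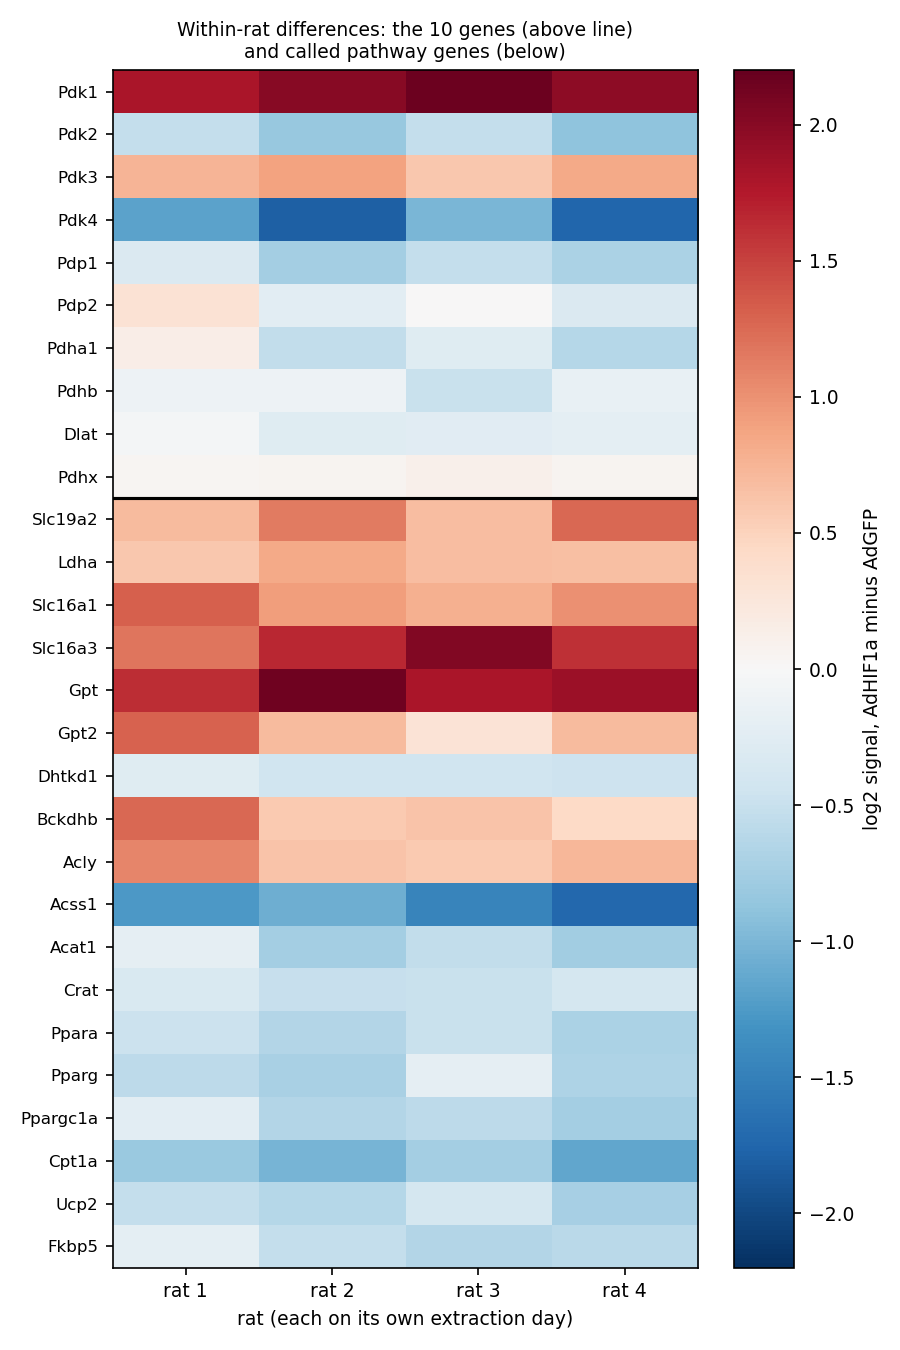
Within-rat differences in log2 signal, AdHIF1a minus AdGFP (colour scale), for the 10 genes above the line and the 18 called genes of the lists below it, with 1 column for each of the 4 rats. Rows of Pdk1 to Pdp1 keep 1 sign in all rats, while Pdp2 and Pdha1 have the opposite sign in rat 1 from rats 2 and 4.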

How the data were processed

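Total RNA of 8 wells was hybridised to Affymetrix arrays. Per the submitters' processing notes, Affymetrix Expression Console made the deposited values; the sources used here name no version, algorithm or genome build. The deposited log2 values (36685 probe sets) were read as log2 from their range, 1.42 to 13.57; array medians were 5.00 to 5.20 and upper quartiles 7.62 to 7.68, close enough that a general shift of all transcripts would not be seen if the authors had scaled the arrays. There are no detection calls, and the number of arrays limits the precision.

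Symbols came from the platform annotation: 18511 probe sets had 1 symbol, 575 several and 17599 none, and 18394 of the first matched RefSeq (GRCr8) by gene identifier with 0 symbols changed. The brightest probe set stood for a gene (18166 genes). Limma 3.58.1 in R 4.3.3 (lmFit, eBayes) was fitted to all probe sets with a fixed block for each rat, and p-values were adjusted (Benjamini-Hochberg) over the 18166 genes. The series' design pairs the wells of a rat; deviations of paired wells from their group means correlated at 0.18 to 0.26 and those of other wells at -0.22 to 0.08. At most 1.95% of values were equal between any 2 arrays. Named were all 10 genes, every called gene of the 5 lists and the 5 genes closest to Pdk1. Uncalled genes of the lists, among them Dld, Pdpr, Ldhb, Mpc1 and Angptl4, were added after their values were seen. The genes and lists were chosen with earlier results of these data known. List entries without a singly annotated probe set were not analysed here. Of 16 alternative settings, 15 come from the design and 1 was chosen after seeing the data; their values are given at the end.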

Additional observations from a re-analysis of the deposited data

Results flagged for a closer look

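Dixon's test for 4 values was run on the AdGFP wells, the AdHIF1a wells and the within-rat differences of the 10 genes and the 18 called pathway genes, 84 groups of values in all. It set 4 of them apart, about as many as the 1 in 20 that chance gives. The AdHIF1a well of rat 4 read 8.37 for Pdk2 against 8.53, 8.53 and 8.54 in the other rats. The difference of Pdhb was -0.49 in rat 3 against -0.12, -0.11 and -0.16. The AdHIF1a well of rat 1 read 12.36 for Slc16a3 against 12.18, 12.17 and 12.17. The difference of Dhtkd1 was -0.26 in rat 1 against -0.43, -0.44 and -0.45.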

How the results depend on the processing

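Among the 10 genes, 2 were higher and 3 lower in the main fit. The counts were the same without the replicate block (2 and 3), with a random block for rats, quantile normalization and median centring. They also held with either filter on dim probe sets, the mean of probe sets, a trended and robust prior and array weights. Chosen after seeing the data, a variance prior from only the probe sets that stand for the 18166 genes gave the same counts. At an adjusted p under 0.01 the lower genes were 1, and with a minimum of 1.5-fold they were 2 (without Pdp1), both by construction of the stricter limit; the higher genes were 2 under both. Leaving out 1 rat gave 1 to 2 higher and 1 to 3 lower genes, with fewer pairs in the fit: 1 and 1 without rat 2 or rat 4, and 2 and 2 without rat 3. Of the 52 pathway genes, 8 were higher and 10 lower, 4 and 2 at an adjusted p under 0.01, 8 and 2 with a minimum of 1.5-fold, and 3 to 8 and 2 to 11 without 1 rat (9 and 8 without the replicate block). Over all genes, 1032 were higher and 1411 lower. The counts were 635 higher after median centring, which shifted all differences by -0.083 in the median, and 349 and 307 at an adjusted p under 0.01. They were 656 and 924 with 1.5-fold, and 1576 and 2098 with the prior from only the probe sets that stand for genes. Without 1 rat they were 315 to 775 and 246 to 1231. The fewest calls came without rat 2 (315 and 246) or rat 4 (324 and 301). Among the 10 genes and the pathway genes, no called gene changed sign under any alternative. The cell type markers, and the genes closest to Pdk1 that are outside the lists, were not followed under the alternatives. The 10 genes have 1 probe set each, so no other probe set could be tried for them. The files hold no detection calls, so signal over background is unknown for every probe set.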
